A study of Mus musculus with 2 samples.

Results

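The cells described here are lung cells with abundant RNA of the 3 genes of complement component C1q (C1qa, C1qb and C1qc), a set labelled C1q-positive interstitial macrophages. A cell was a member if it had at least 200 genes, at least 1000 UMIs (unique molecular identifiers, 1 per captured RNA molecule) and at most 20% mitochondrial UMIs, and if the 3 C1q genes together gave at least 5 UMIs and at least 0.05% of its UMIs. It also had to hold at most 2 UMIs of the alveolar macrophage genes Plet1, Krt79 and Ear2, and 0 UMIs of Cd3e, Cd79a, Cdh5 and Flt3, which mark T cells, B cells, endothelium and dendritic cells. The rule chose 31 of 7808 filtered cells in the library of mice given LPS and miconazole (LPS + MCZ) and 35 of 11243 in the library of LPS mice, 66 members of 19051 filtered cells in all.

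All mice were male ICR mice of 6 to 8 weeks that had received LPS (lipopolysaccharide), and the LPS + MCZ mice were in addition injected intraperitoneally with MCZ, miconazole, an azole antifungal. The sources disagree on the MCZ dose, with 0.2 mg/kg among the sample's characteristics and 1.0 mg/kg where the treatment is described. The LPS dose, the timing and the number of mice are not given in the sources used here. Each library pooled the left lower lobes of all mice of its group, so there is 1 library per group, no untreated lung was analysed here, and no test between the groups is possible. Intervals below are exact 95% intervals for counting error alone. They do not hold the variation between mice, and the members of a library are not replicates of its group.

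C1q is the recognition part of the classical complement pathway. It is built from A, B and C chains and binds antibody complexes, dying cells and microbes, and tissue macrophages are among its main producers. In the lung, macrophages of the interstitium lie between airspace and vessels and are known for antigen presentation and for regulating inflammation. They are set apart from the alveolar macrophages of the airspace, which in mice carry Siglecf. The 3 genes lie side by side on the minus strand of chromosome 4 (GRCm38, the mm10 build; GENCODE vM21): C1qb at chr4:136880129-136886187, C1qc at chr4:136889804-136893065 and C1qa at chr4:136895917-136898803.

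The members made up 0.397% of filtered cells in the LPS + MCZ library (interval 0.270 to 0.563%) and 0.311% in the LPS library (0.217 to 0.433%). The intervals overlap, and fewer cells of a type and less RNA per cell cannot be told apart in such a share. Median depth was 15283 UMIs and 3886 genes per member in the LPS + MCZ library and 15407 UMIs and 3485 genes in the LPS library. Summed over members, there were 473428 UMIs in the LPS + MCZ library and 577621 in the LPS library. The libraries shared 243 cell barcodes, and 0 members had a barcode that occurs in the other library. The neutrophil genes S100a8 and S100a9 took a median of 0.222% of a member's UMIs in the LPS + MCZ library (highest 6.38%) and 0.140% in the LPS library (highest 28.6%), and 1 member of each library was above 5%.

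Because the C1q genes chose the members, their levels are a description. A member held 5 to 321 C1q UMIs (median 29) in the LPS + MCZ library and 6 to 268 (median 36) in the LPS library. C1qa stood at 2233 CPM (UMIs per 1000000 UMIs of the summed members) in the LPS + MCZ library and 1463 CPM in the LPS library, C1qb at 1859 and 1420 CPM, and C1qc at 1263 and 713 CPM. In the other cell ranges examined, each C1q gene stood between 0 and 2.1 CPM in either library. The monocyte, T cell, B cell and erythroid ranges were limited to fewer than 5 C1q UMIs per cell, so low levels there were set by their rules. Members held 86.4% of all C1q UMIs of filtered cells in the LPS + MCZ library and 88.5% in the LPS library. The member with the lowest C1q share had 0.0501% of its UMIs in the LPS + MCZ library and 0.0506% in the LPS library. Outside the rule, 10 LPS + MCZ and 8 LPS cells had at least 5 C1q UMIs and met every condition but the share, the nearest of them at 0.0349% and 0.0439% of UMIs.

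**Figure D1:**
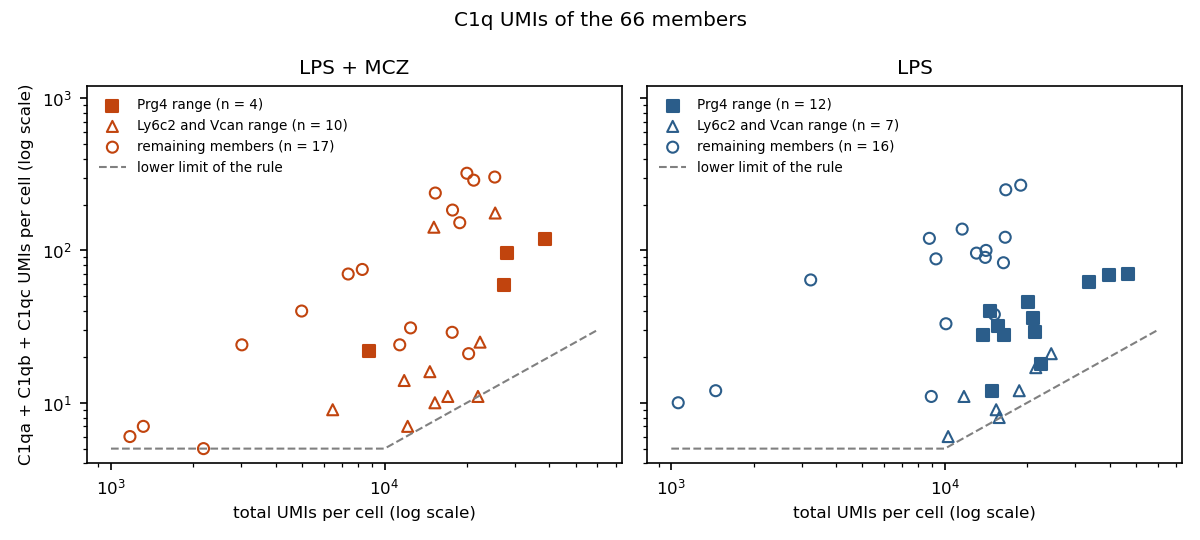
C1q UMIs (C1qa + C1qb + C1qc) of each of the 66 members against its total UMIs, both on log scales, with LPS + MCZ on the left and LPS on the right; symbols give the 3 gene ranges described in the text and the dashed line is the lower limit of the rule. Members run from 5 to 321 C1q UMIs in the LPS + MCZ library and from 6 to 268 in the LPS library, and the Prg4 range (filled squares) holds 4 and 12 cells.

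The label was set against marker genes. For comparison, 3 kinds of like cells were picked by gene rules from the same libraries: an alveolar macrophage range (312 LPS + MCZ and 419 LPS cells), a classical monocyte range (329 and 479 cells) and a nonclassical monocyte range (602 and 628 cells), in which S100a8 and S100a9 took 5.81% and 5.17% of UMIs. General macrophage genes were present in the members: all 11 of the macrophage core list had UMIs in both libraries. Fcgr1, the high-affinity IgG receptor, stood at 729 CPM in LPS + MCZ members and 637 CPM in LPS members. Of the interstitial macrophage list, all 17 genes had UMIs in both libraries, led by Apoe, the lipid carrier apolipoprotein E, at 3388 CPM in LPS + MCZ members and 3185 CPM in LPS members. Cx3cr1, the fractalkine receptor often used to mark interstitial macrophages, was nearly absent, with 1 UMI in LPS + MCZ members and 7 in LPS members. Of 14 alveolar macrophage markers, 5 had 0 UMIs in each library, among them Siglecf in both. The list summed to 1056 CPM in LPS + MCZ members and 1768 CPM in LPS members, against 13759 and 12440 CPM in the alveolar range, 1463 and 1053 CPM in the classical and 1371 and 892 CPM in the nonclassical monocyte range. Much of it in LPS members was Marco, a scavenger receptor, with 127 UMIs in LPS + MCZ members and 522 in LPS members (log2 ratio −1.75), of which 88 and 486 were in the Prg4 range described below. Krt79, Plet1 and Ear2 were limited by the rule and are no check of the label. The rule also removed cells with Cd3e, Cd79a, Cdh5 or Flt3, so low T cell, B cell, endothelial and dendritic lists were set in part by the choice of members. Lists of NK cells, fibroblasts, platelets, and mast cells and basophils each summed to at most 14.8 CPM in either library. Erythroid genes summed to 604 CPM in LPS + MCZ members and 346 CPM in LPS members, epithelial genes to 215 and 62.3 CPM and dendritic cell genes to 101 and 72.7 CPM. Genes known from other myeloid cells also had RNA in the members. The 11 neutrophil genes summed to 11856 CPM in LPS + MCZ members and 17207 CPM in LPS members. The 8 classical monocyte genes summed to 3447 and 5107 CPM, and 0 genes of either list were without a UMI. Fn1, of the monocyte list, had 1221 UMIs in LPS members, 1199 of them in the Prg4 range described below. Whether RNA of these lists came from the members or from other cells was not tested. Its part in the differences below was not tested either.

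**Figure D2:**
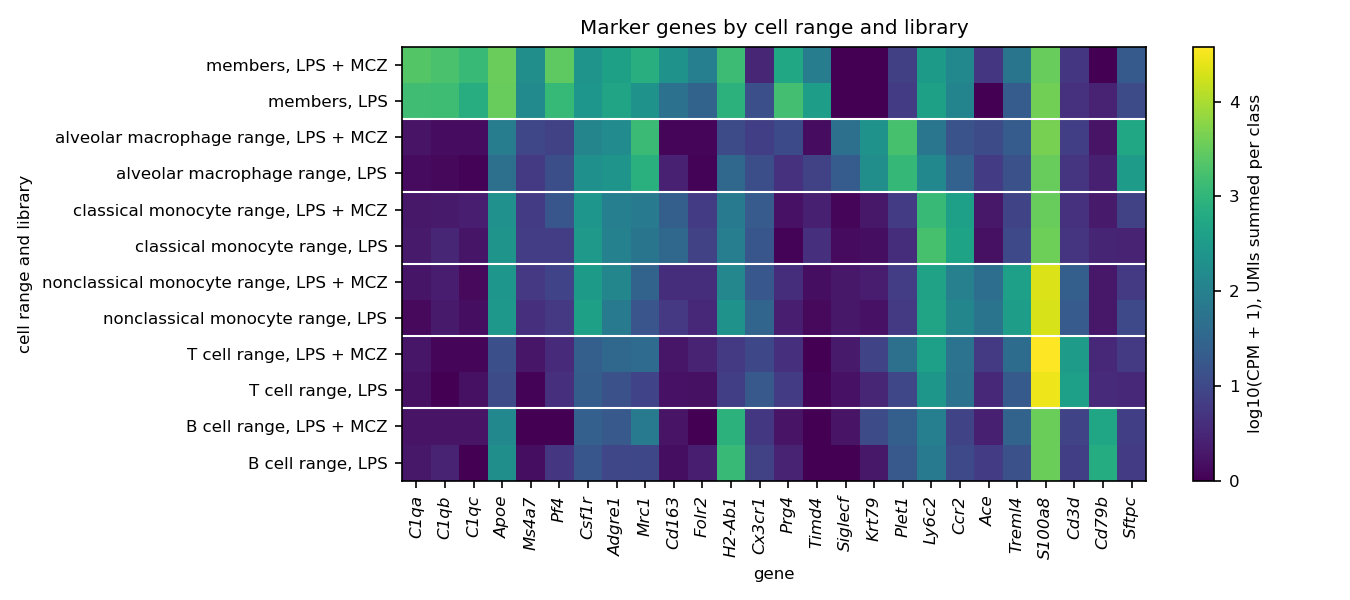
Level of marker genes, as log10 of CPM + 1 of the UMIs summed over the cells of each range and library (rows, LPS + MCZ above LPS in each pair; columns are genes). The C1q genes are at 713 to 2233 CPM in the members and at no more than 2.1 CPM elsewhere, and Siglecf is at 0 in the members. Krt79 and Plet1 were limited by the rule.

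Beside the rule's own genes, the members stood apart from like cells in a short set of genes. Of 725 genes with at least 100 UMIs in the members of each library, 29 (4.0%) were at least 2-fold above the highest of the 3 ranges in both libraries, and 0 (0%) were at least 2-fold below the lowest. The gene minimum applied to the members and not to the 3 ranges, so genes low in the members were left out. The 29 and the 0 can therefore not be set against each other. No test applies, since the members were chosen from the same counts. Cxcl13, the chemokine that draws B cells, led with 2288 CPM in LPS + MCZ members and 6130 CPM in LPS members, and with no more than 0.985 CPM in the 3 ranges. Pf4, platelet factor 4, also made by resident macrophages, stood at 2803 and 1148 CPM, and Apoe at 3388 and 3185 CPM, 13.3-fold and 11.7-fold above the highest range. The set also held Ctla2b, Prg4, Ccl8, Cxcl9, C4b, Frmd4b, Tmem176b, H2-Aa, Ccl5, Tmem176a, H2-Ab1 and Ecm1. Not all of these were shared by the members. Prg4 was at 0 CPM outside the Prg4 range described below, C4b stood at 1423 CPM in that range and 13.5 CPM in the other members, and 1 cell held 96.1% of the Ccl8 UMIs of LPS members. Over 14 points (the members and 6 other ranges, in each of the 2 libraries), the genes whose CPM followed the C1q sum most closely were Cxcl9 (Pearson r = 0.999), Ctla2b (0.993), Ms4a7 (0.993), Tmem176b (0.991), Frmd4b (0.990), Apoe (0.981), Alox15 (0.979), Tmem176a (0.978), Pf4 (0.977) and Cp (0.972). Cxcl9 was seen in 8 of 31 LPS + MCZ and 7 of 35 LPS members, and 1 cell held 69.2% and 42.9% of its UMIs. Alox15 stood at 306 CPM in the Prg4 range and at 0 CPM in the other members. These correlations rest on the contrast between 2 member points and 12 others and are descriptions.

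The 66 cells were not 1 kind of cell. The ranges below were set after the values had been seen, so their defining genes are descriptions and the ranges carry no test. Prg4, which encodes the lubricant proteoglycan 4, was at 5 UMIs or more in 16 members and at 0 UMIs in the other 50. In LPS + MCZ members 4 of 31 cells (12.9%, interval 3.63 to 29.8%) were in this Prg4 range, with 5 to 115 Prg4 UMIs per cell. In LPS members 12 of 35 cells (34.3%, 19.1 to 52.2%) were in it, with 20 to 163 Prg4 UMIs per cell. The 2 intervals overlap.

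The Prg4 range shared a set of genes that the rule did not use. All 16 cells had UMIs of Selp (P-selectin), Fn1 (fibronectin), F5 (coagulation factor V), C4b (complement C4) and Serpinb2 (an inhibitor of plasminogen activators). Alox15, a lipoxygenase, was seen in 15 of 16 cells, at 306 CPM against 0 CPM in the other members, and Timd4, a receptor for phosphatidylserine on dying cells, in 15 of 16, at 598 CPM against 28.4 CPM. Gata6, a transcription factor known from macrophages of the mouse peritoneal cavity, had UMIs in 2 of 4 LPS + MCZ and 5 of 12 LPS cells of this range and in 0 of the other members. Mrc1, the mannose receptor, had 2 UMIs in the 4 LPS + MCZ cells of the range and 0 in the 12 LPS cells, and Folr2 and Lyve1 had 0 in both. Prg4, Selp, F5, Alox15 and Timd4 are known together from mouse serosal cavity macrophages. These 16 cells therefore go against the label, and no other name is given to them. Outside the members, 8 LPS + MCZ and 9 LPS filtered cells had at least 5 Prg4 UMIs, and of these 1 and 5 held any C1q UMI.

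The second group, the Ly6c2 and Vcan range, held members outside the Prg4 range with at least 5 UMIs of Ly6c2 and Vcan, 2 genes of classical monocytes. It had 10 of 31 LPS + MCZ members (32.3%, 16.7 to 51.4%) and 7 of 35 LPS members (20.0%, 8.44 to 36.9%). Its leading genes were Ly6c2, Ccr2 (the chemokine receptor of classical monocytes), Fabp5, S100a4, Tmsb10, Pira2 and Plac8, and its C1q share was low, with a median of 0.111% of UMIs in the LPS + MCZ cells and 0.0642% in the LPS cells. The interstitial macrophage list summed to 4611 CPM in its LPS + MCZ cells and 3180 CPM in its LPS cells, against 13117 and 10966 CPM in the remaining members described next. The label is therefore also in doubt for these cells.

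The remaining 17 LPS + MCZ and 16 LPS members carried most of the C1q RNA, with a median C1q share of 0.803% and 0.781% of UMIs. They were led by the MHC class II genes H2-Ab1, H2-Aa and Cd74, which present antigen to T cells, at 2882, 2255 and 7225 CPM against 55.8, 52.8 and 210 CPM in the other members. Ms4a7, a membrane protein of tissue macrophages, Cd63, Cd83, Cd72 and Mrc1 followed. A tissue-resident set of 6 genes (Lyve1, Folr2, Cd163, Timd4, Cbr2 and Fcna) reached at least 2 UMIs in 19 of 31 LPS + MCZ members (61.3%, 42.2 to 78.2%) and 18 of 35 LPS members (51.4%, 34.0 to 68.6%). Among T cells, which should lack these genes, the shares were 1.30% and 0.703% at median depths of 8436 and 7238 UMIs. With each cell thinned to 1000 UMIs, at least 1 UMI was seen in 41.9% of LPS + MCZ and 31.4% of LPS members, against 3 of 461 and 1 of 996 T cells. In the classical monocyte range 27.7% and 22.1% of cells had at least 2 UMIs, at median depths of 18304 and 15570 UMIs. The Prg4 range entered this count: all 4 LPS + MCZ and all 12 LPS cells of that range met it, the most frequent genes being Timd4 and Fcna (a ficolin of the lectin pathway), while of the remaining members 10 of 17 and 4 of 16 did.

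**Figure D3:**
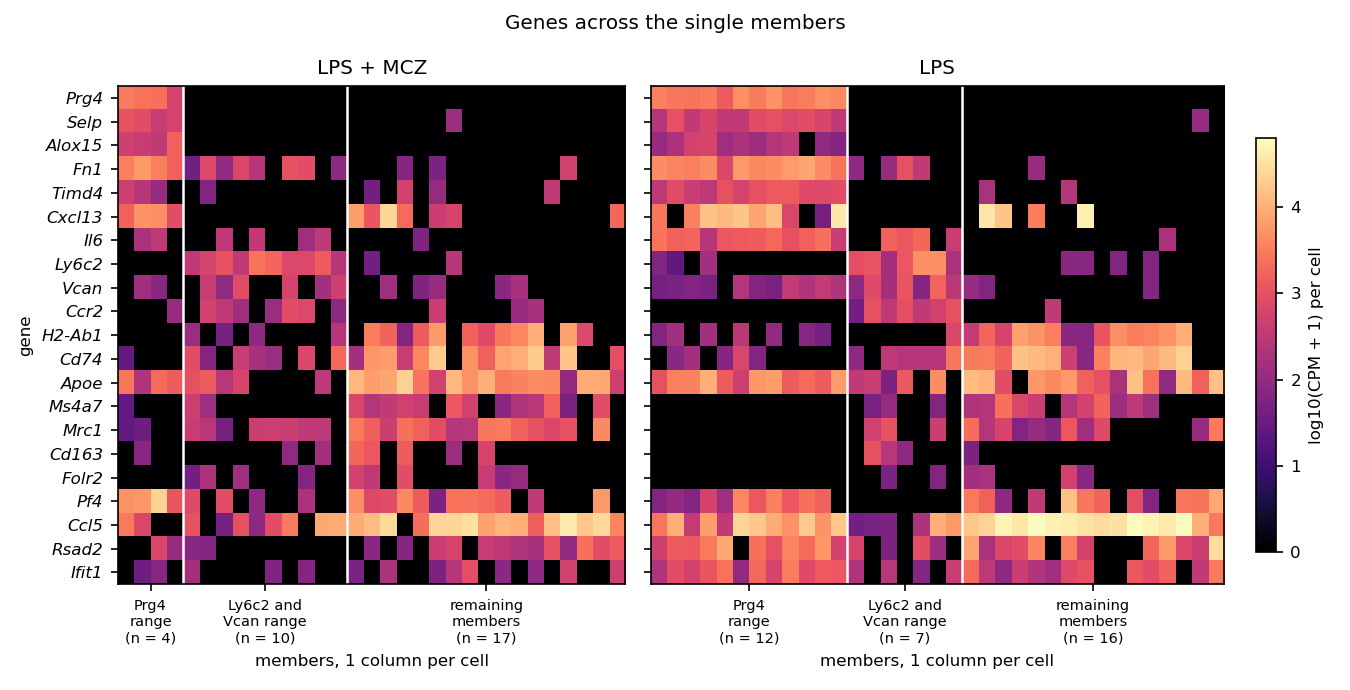
Level of 21 genes (rows) in every member (columns, log10 of CPM + 1 per cell), LPS + MCZ on the left and LPS on the right, with white lines between the Prg4 range, the Ly6c2 and Vcan range and the remaining members. Prg4, Selp and Alox15 fill the first block, which holds 4 LPS + MCZ and 12 LPS cells, and H2-Ab1, Cd74 and Ms4a7 mark the last block of 17 and 16 cells.

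The question the design poses is how cells of LPS lungs that also received MCZ differ from cells of LPS lungs. Over all members, 1767 genes had at least 100 UMIs over both libraries (the rule's genes and mitochondrial genes left out). Of these, 60 (3.4%) were at least 2-fold higher in LPS + MCZ members and 97 (5.49%) at least 2-fold lower. With the libraries scaled by the median ratio of the tested genes in place of their totals, 40 were higher and 118 lower, and without the Prg4 range 29 were higher and 69 lower. The median log2 ratio was 0.11, with ratios throughout taken as LPS + MCZ over LPS of CPM + 1, while the intervals beside them are of the ratio without the added 1. Since the Prg4 range held 4 LPS + MCZ and 12 LPS cells, some lists and genes are also given within the remaining members, where 17 and 16 cells face each other. A ratio given over all members alone does not show how far it moves with this imbalance.

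Interferon-induced antiviral genes were lower in LPS + MCZ members. Of the 36 genes of the interferon response list, 34 were in the files and 29 had at least 100 UMIs. Their median log2 ratio was −1.07, and 28 of 29 were below 0 (39.3% of all genes tested were). Of the 29, 15 were at least 2-fold lower (5.49% of all genes tested were) and 0 at least 2-fold higher (3.4%). The summed list took a median of 9352 CPM per cell in LPS + MCZ members (4043 to 22672 CPM) and 19339 CPM in LPS members (3541 to 53774 CPM), so single cells overlapped widely. Within the remaining members the median log2 ratio was −0.94 with 29 of 29 genes below 0 (40.2% of all genes tested), within the Prg4 range it was −1.46 with 28 of 29, and within the Ly6c2 and Vcan range −0.45 with 20 of 29. Of all genes tested, 48.4% and 50% were below 0 in these last 2 ranges. At least 2-fold lower were 14 of the 29 in the remaining members (7.98% of all genes tested, with 11.5% higher), 18 in the Prg4 range (11.1%, with 11% higher) and 9 in the Ly6c2 and Vcan range (7.87%, with 6.17% higher).

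Rsad2 (viperin, an antiviral enzyme that makes a chain-terminating nucleotide) had 62 UMIs in LPS + MCZ members, 131 CPM (interval 100 to 168), and 990 UMIs in LPS members, 1714 CPM (1609 to 1824). A member held 0 to 18 Rsad2 UMIs (median 1) in the LPS + MCZ library and 0 to 145 (median 14) in the LPS library, and its log2 ratio was −3.70 (−4.10 to −3.34). The difference was of the same direction in all 3 ranges, with log2 ratios of −3.47 in the Prg4 range, −3.80 in the Ly6c2 and Vcan range and −3.46 in the remaining members. Its neighbour Cmpk2, a mitochondrial nucleotide kinase transcribed away from it on chromosome 12, had 5 UMIs in 4 LPS + MCZ members and 99 UMIs in 20 LPS members (log2 ratio −3.90, −5.67 to −2.75).

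The IFIT family, which binds viral RNA, followed. Ifit1 had 80.3 CPM in LPS + MCZ members and 710 CPM in LPS members (log2 ratio −3.13, −3.66 to −2.66), and it was seen in 14 of 31 and 29 of 35 cells. Ifit2 stood at 42.2 and 329 CPM (−2.93) and Ifit3 at 88.7 and 415 CPM (−2.21). Usp18, which removes ISG15 and restrains interferon signalling, stood at 48.6 and 254 CPM (−2.37), but its log2 ratio in the Ly6c2 and Vcan range, on 9 UMIs in all, was 2.41. Isg15, the ubiquitin-like protein itself, was at 708 CPM in LPS + MCZ members and 1584 CPM in LPS members (−1.16, −1.35 to −0.98).

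Not every gene of the list was lower by such a factor. Irf7, the factor that amplifies type I interferon, stood at 657 CPM in LPS + MCZ members and 1117 CPM in LPS members (−0.76, −0.97 to −0.57). Ifitm3, a membrane protein that blocks viral entry, stood at 3802 and 4309 CPM (−0.18, −0.27 to −0.09). Of the interferon-inducible GTPases, which attack membranes around microbes, 8 of 15 had enough UMIs, with a median log2 ratio of −0.39. Of these 8, 6 were below 0 (39.3% of all genes tested were), and only Iigp1 was at least 2-fold lower (90.8 and 355 CPM, −1.95). All 8 were below 0 in the remaining members (median −0.79), where 40.2% of all genes tested were. In the Ly6c2 and Vcan range 8 of 8 were above 0 (median 0.58), against 49.3% of all genes. In the Prg4 range 4 of 8 were below 0, against 48.4% of all genes.

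Promoter windows of 5 genes of the interferon response list are shown because 28 of its 29 measured genes were below 0 over all members. Rsad2, Ifit1, Ifit3 and Isg15 have windows that hold the letters known from interferon response elements. Cmpk2, the gene of the list with the lowest ratio, has a window that holds none. Each is the 250 bases before the RefSeq start of the gene on GRCm38.p6, 5′ to 3′ on the gene's strand, and capitals mark matches to GAAA-NN-GAAA (N for any base) on either strand, that is also TTTC-NN-TTTC, with overlapping matches joined.
Rsad2 (minus strand, chr12:26456453-26456702): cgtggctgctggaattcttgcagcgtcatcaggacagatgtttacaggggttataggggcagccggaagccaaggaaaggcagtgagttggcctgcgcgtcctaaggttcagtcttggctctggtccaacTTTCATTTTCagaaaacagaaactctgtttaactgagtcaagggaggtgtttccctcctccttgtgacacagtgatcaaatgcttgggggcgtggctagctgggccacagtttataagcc
Ifit1 (plus strand, chr19:34640639-34640888): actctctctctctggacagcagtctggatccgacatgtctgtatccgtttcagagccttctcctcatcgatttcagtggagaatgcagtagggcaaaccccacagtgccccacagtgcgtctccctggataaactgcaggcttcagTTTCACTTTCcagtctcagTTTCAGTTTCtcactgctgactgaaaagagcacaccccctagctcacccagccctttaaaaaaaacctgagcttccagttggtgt
Ifit3 (plus strand, chr19:34583279-34583528): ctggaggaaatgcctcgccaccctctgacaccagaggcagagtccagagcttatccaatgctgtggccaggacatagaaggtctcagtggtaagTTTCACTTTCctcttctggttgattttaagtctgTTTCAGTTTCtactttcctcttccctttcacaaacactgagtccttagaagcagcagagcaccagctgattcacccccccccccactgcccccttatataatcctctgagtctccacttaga
Isg15 (minus strand, chr4:156200819-156201068): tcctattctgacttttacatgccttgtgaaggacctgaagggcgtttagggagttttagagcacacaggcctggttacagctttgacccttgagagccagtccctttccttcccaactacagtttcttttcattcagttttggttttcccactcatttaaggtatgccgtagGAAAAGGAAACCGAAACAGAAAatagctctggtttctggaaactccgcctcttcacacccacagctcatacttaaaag
Cmpk2 (plus strand, chr12:26468965-26469214): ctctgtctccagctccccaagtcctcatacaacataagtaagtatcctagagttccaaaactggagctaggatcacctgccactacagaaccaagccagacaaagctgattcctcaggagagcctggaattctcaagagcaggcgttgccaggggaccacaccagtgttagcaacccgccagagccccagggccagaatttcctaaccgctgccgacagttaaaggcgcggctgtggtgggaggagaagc
The match begins 120 bases before the start in Rsad2. There are 2 matches in Ifit1, 2 in Ifit3 and 3 overlapping ones in Isg15.

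Of the 29 interferon list genes tested, 23 had a promoter window, and 11 of these (47.8%) held the motif in at least 1 window. Among all 27025 genes with a window the share was 3.46%, or 2.98% of 32851 windows, and among the 1398 tested genes outside the list with a window it was 4.94%. Within the list, the genes that held the motif had a median log2 ratio of −1.07 (n = 11) and those that did not −1.22 (n = 12). A match is a description of letters and says nothing about binding.

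**Figure D4:**
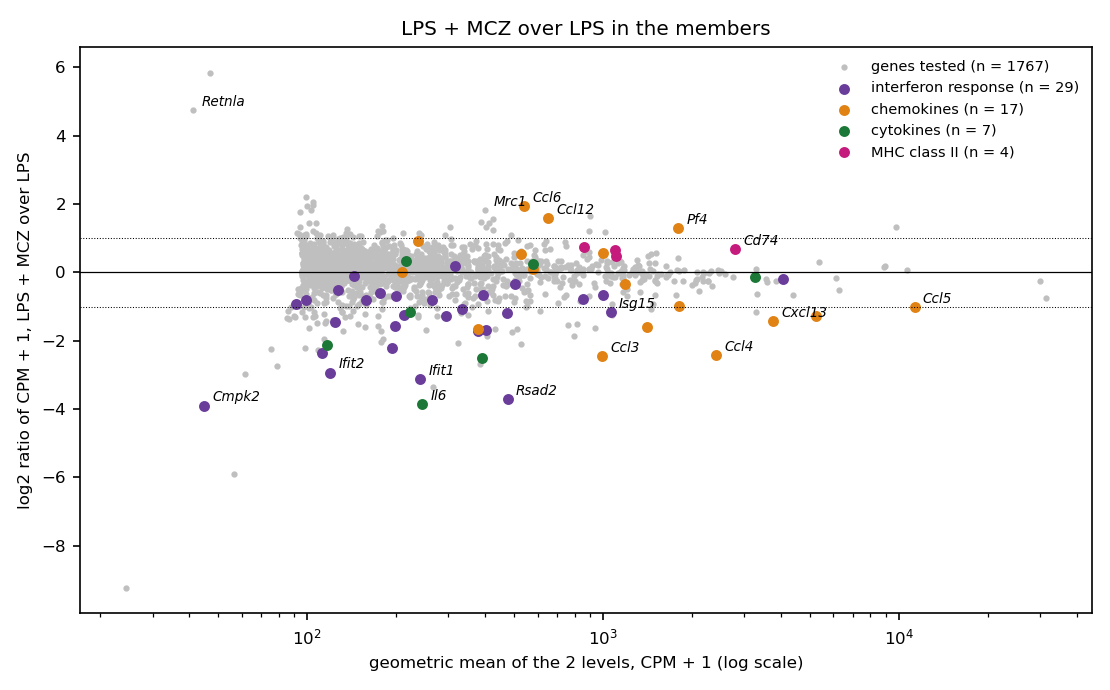
Log2 ratio of CPM + 1, LPS + MCZ over LPS, of the 1767 genes tested in the members against the geometric mean of their 2 levels (log scale), with 4 gene lists in colour and dotted lines at 2-fold. Of the 29 interferon response genes 28 lie below 0, and the 4 MHC class II genes lie between 0.48 and 0.73. Cfd, with 0 UMIs in LPS + MCZ members, is the lowest point and its ratio is set by the added 1.

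Among cytokines, 7 of 16 genes had enough UMIs, with a median log2 ratio of −1.15 and 4 at least 2-fold lower (5.49% of all genes tested were). Il6, the acute phase cytokine, had 30 UMIs in 7 LPS + MCZ members and 534 UMIs in 17 LPS members, 63.4 and 924 CPM (−3.85, −4.45 to −3.34). Most Il6 UMIs of LPS members, 456 of 534, came from the 12 cells of the Prg4 range, where all 12 cells had UMIs; in the 4 LPS + MCZ cells of that range 14 UMIs were seen in 2 cells. In the remaining members Il6 had 1 and 2 UMIs, so the pooled ratio of Il6 moves with the number of Prg4 range cells and its value in that range (−3.57). Il1a, an alarm cytokine released by dying cells, stood at 163 CPM in LPS + MCZ members and 931 CPM in LPS members (−2.51), Osm (oncostatin M) at 54.9 and 241 CPM (−2.11) and Tnf at 148 and 329 CPM (−1.15, −1.57 to −0.75). These 3 were below 0 in each of the 3 ranges. Il1b was abundant in both, at 3101 and 3414 CPM (−0.14, −0.24 to −0.04), and Il1rn, the antagonist of the interleukin 1 receptor, stood at 627 and 531 CPM (0.24, 0.00 to 0.47).

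Chemokines went in both directions. Of 22 genes 21 were in the files and 17 had enough UMIs. Their median log2 ratio was −0.33 over all members. Of the 17, 7 were at least 2-fold lower (5.49% of all genes tested were) and 3 at least 2-fold higher (3.4%). In the remaining members the median was −0.82, with 13 of 17 below 0 (40.2% of all genes tested were). It was −0.31 in the Ly6c2 and Vcan range and 0 in the Prg4 range. Ccl3 and Ccl4, which draw monocytes and T cells, stood at 422 and 1039 CPM in LPS + MCZ members and at 2322 and 5545 CPM in LPS members, with log2 ratios of −2.46 (−2.68 to −2.24) and −2.41 (−2.56 to −2.28). Ccl4 was seen in 23 of 31 and 34 of 35 cells, with 0 to 120 UMIs per cell (median 1) and 0 to 367 (median 74), and in the remaining members its log2 ratio was −2.25. Ccl5, the most abundant of the list, stood at 7940 CPM in LPS + MCZ members and 15998 CPM in LPS members (−1.01, −1.07 to −0.96), and at 16024 and 37233 CPM in the remaining members (−1.22). The neutrophil attractants Cxcl1 and Cxcl2 stood at 801 and 3352 CPM in LPS + MCZ members and at 2450 and 8149 CPM in LPS members (−1.61 and −1.28), and both were below 0 in each range. Cxcl10, an interferon-induced ligand of CXCR3, stood at 1282 and 2526 CPM (−0.98), with 1074 and 3867 CPM in the remaining members (−1.85) but a log2 ratio of 0.35 in the Prg4 range.

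Several chemokine ratios rested on few cells. Ccl8 had 385 UMIs in LPS members, of which 96.1% came from 1 cell. Cxcl13 was seen in 11 LPS + MCZ and 14 LPS members and was at 0 in the Ly6c2 and Vcan range of both libraries (log2 ratio over all members −1.42, in the remaining members −1.18). Pf4 was higher in LPS + MCZ members, at 2803 CPM against 1148 CPM (1.29, 1.15 to 1.42), but 1 cell of the Prg4 range held 614 of its 1327 UMIs, and in the remaining members it was lower (1453 and 2123 CPM, −0.55). Ccl12, a ligand of CCR2, was higher over all members (1134 and 374 CPM, 1.60) and nearly level in the remaining members (1098 and 1059 CPM, 0.05). Ccl6 was higher at 1062 and 275 CPM (1.94, 1.69 to 2.21), with 1506 and 145 CPM in the remaining members (3.37), but its log2 ratio was −0.43 in the Prg4 range.

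**Figure D5:**
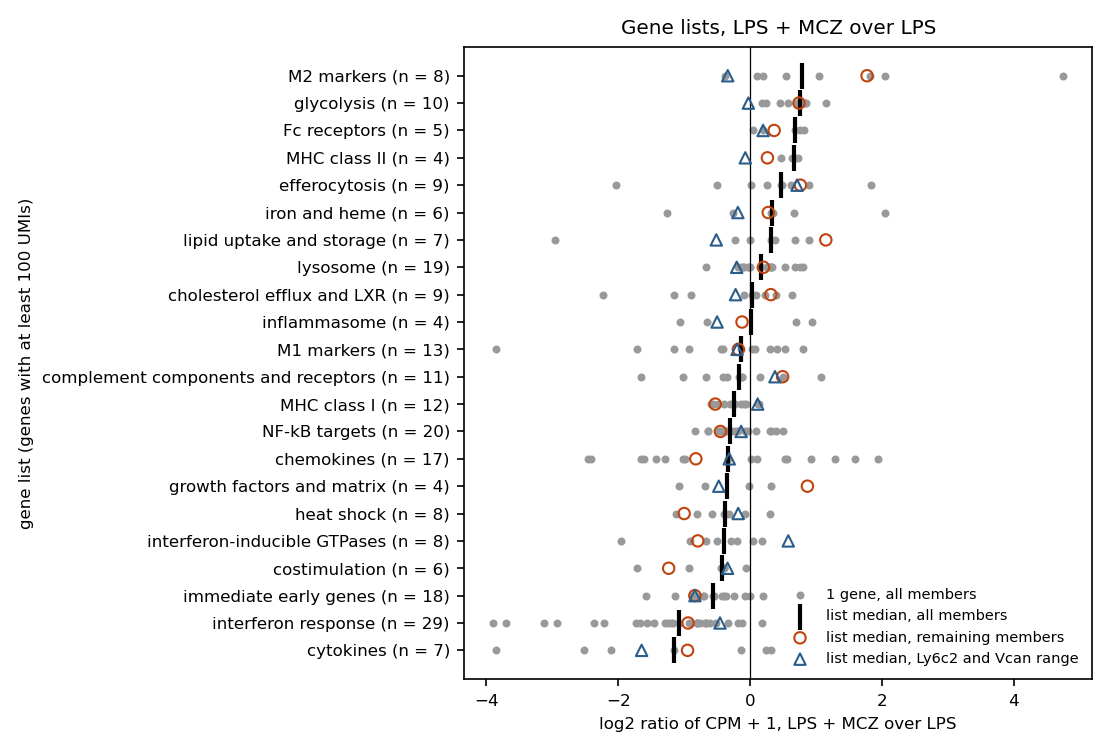
Log2 ratios of CPM + 1, LPS + MCZ over LPS, by gene list: grey dots are single genes over all members, black bars the list median over all members, open circles the median within the remaining members and open triangles the median within the Ly6c2 and Vcan range. The interferon response and cytokine medians are −1.07 and −1.15 over all members, and the M2 marker median is 0.80 over all members and −0.34 in the Ly6c2 and Vcan range.

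Genes of antigen presentation were set apart by class. Of 11 MHC class II genes, 4 had enough UMIs, with a median log2 ratio of 0.67 and 0 past 2-fold in either direction. Cd74, the invariant chain, stood at 3536 CPM in LPS + MCZ members and 2195 CPM in LPS members (0.69, 0.58 to 0.79), H2-Aa at 1109 and 667 CPM (0.73), H2-Ab1 at 1371 and 876 CPM (0.65) and Ctss, the protease that trims the invariant chain, at 1299 and 933 CPM (0.48). These genes sat in the remaining members, which held 208503 of the 473428 UMIs of LPS + MCZ members and 179465 of the 577621 UMIs of LPS members. Within them the median log2 ratio was 0.27, and with each cell weighted equally it was −0.03 over all members, so no direction is given for MHC class II. Of 13 MHC class I genes 12 had enough UMIs (median −0.24, 0 past 2-fold in either direction), among them H2-K1 at 1096 and 1620 CPM (−0.56). Costimulation genes were below 0 in 6 of 6 measured genes (39.3% of all genes tested were). Among them, Cd40 stood at 71.8 CPM in LPS + MCZ members and 239 CPM in LPS members (−1.72, −2.32 to −1.18) and Cd86 at 272 and 518 CPM (−0.92, −1.24 to −0.62). In the remaining members the median of the costimulation genes was −1.23.

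Markers of resident interstitial macrophages were mostly higher in LPS + MCZ members, some of them through few cells. Of the 14 resident markers, 8 had enough UMIs, with a median log2 ratio of 1.58, 6 at least 2-fold higher (3.4% of all genes were) and 1, Timd4, at least 2-fold lower (5.49%). The 6 higher genes included Cd209f, with 167 UMIs in 1 LPS + MCZ cell, and Pf4, with 614 of 1327 LPS + MCZ UMIs in 1 cell. In the remaining members Pf4 was lower, at 1453 CPM in LPS + MCZ and 2123 CPM in LPS cells. The median of the resident markers was 1.64 in the remaining members but −0.02 in the Ly6c2 and Vcan range. In that range 2 genes were at least 2-fold higher (6.17% of all genes were) and 2 lower (7.87%). Mrc1, a receptor for mannose-bearing glycoproteins and a marker of alternatively activated macrophages, stood at 750 CPM in LPS + MCZ members and 211 CPM in LPS members (1.82, 1.53 to 2.14), with UMIs in 25 of 31 and 14 of 35 cells. It was also higher in the remaining members (1477 and 468 CPM, 1.66), but not in the Ly6c2 and Vcan range (−0.22). Cd163, the receptor for haptoglobin and hemoglobin, had 100 UMIs in 8 LPS + MCZ members and 29 UMIs in 4 LPS members (2.05, 1.46 to 2.72). In the remaining members it had 95 UMIs in 5 cells and 1 UMI in 1 cell, and in the Ly6c2 and Vcan range 3 and 28 UMIs. Stab1, a scavenger receptor, stood at 194 and 53.7 CPM (1.84), and Lyve1, the hyaluronan receptor of perivascular macrophages, had 37 UMIs in 5 LPS + MCZ and 3 UMIs in 2 LPS members. Of 18 M2 markers 8 had enough UMIs, with a median log2 ratio of 0.80 and 4 at least 2-fold higher (Retnla, Cd163, Mrc1 and Il4ra, against 3.4% of all genes). In the remaining members the M2 median was 1.78, with 8 of 8 above 0 (59.5% of all genes) and 7 at least 2-fold higher (11.5%). It turned to −0.34 in the Ly6c2 and Vcan range, with 6 genes below 0 (50% of all genes) and 1 above (49.3%). With cells thinned to 1000 UMIs the M2 median was −0.24. Of 15 M1 markers 13 had enough UMIs, with a median of −0.14 and 3 at least 2-fold lower (Il6, Cd40 and Tnf, against 5.49% of all genes). Timd4 was lower (86.6 and 358 CPM, −2.04), and 201 of its 207 LPS UMIs were in the Prg4 range.

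Fc receptor genes, which bind antibody, were above 0 in 5 of 5 measured genes (median 0.69; 60.7% of all genes tested were above 0), with Fcgr4 at 275 CPM in LPS + MCZ members and 156 CPM in LPS members (0.81, 0.42 to 1.22) and Fcgr1 at 729 and 637 CPM (0.19, −0.02 to 0.41). In the remaining members the list's median was 0.37 with 3 of 5 above 0, where 59.5% of all genes were. Glycolysis genes were above 0 in 10 of 10 measured genes (median 0.76, against 60.7% of all genes above 0). Among them, Pkm, pyruvate kinase, stood at 564 and 317 CPM (0.83, 0.56 to 1.11). In the remaining members their median was 0.74 with 10 of 10 above 0, where 59.5% of all genes were. In the Ly6c2 and Vcan range the median was −0.02 and 5 of 10 were above 0, against 49.3% of all genes. Immediate early genes, which also respond to tissue digestion, were below 0 in 16 of 18 measured genes (39.3% of all genes tested were). Their median was −0.56, and 8 of the 18 were open to free RNA as defined below. Egr1 stood at 99.3 and 300 CPM (−1.58) and Fos at 275 and 606 CPM (−1.14). Heat shock genes were below 0 in 7 of 8 (median −0.38, against 39.3% of all genes below 0), with Hspa1a at 414 and 900 CPM (−1.12). Their part in the other differences was not tested.

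NF-kB targets were below 0 in 15 of 20 genes (39.3% of all genes were), with a median log2 ratio of −0.31 and 0 of 20 past 2-fold, and 10 of the 20 were open to free RNA. In the remaining members 17 of 20 were below 0 (median −0.45), where 40.2% of all genes were. With cells thinned to 1000 UMIs the NF-kB targets list median was 0.078. Nfkbia, the inhibitor that NF-kB itself induces, stood at 2167 CPM in LPS + MCZ members and 2202 CPM in LPS members (−0.02). Lysosome genes had a median of 0.18 (19 of 31 measured), efferocytosis genes 0.47 (9 of 19), lipid uptake and storage genes 0.32 (7 of 21), iron and heme genes 0.33 (6 of 14), growth factors and matrix genes −0.35 (4 of 16) and inflammasome genes 0.02 (4 of 12). Cholesterol efflux and LXR genes had a median of 0.03 (9 of 17), with 2 of 9 at least 2-fold lower (5.49% of all genes tested were). These were Mylip, which marks the LDL receptor for degradation, at 33.8 CPM in LPS + MCZ members and 163 CPM in LPS members (−2.23, −3.13 to −1.49), and Abca1, a cholesterol exporter, at 69.7 and 156 CPM (−1.15, −1.78 to −0.57). Of the complement components and receptors, 11 of 18 had enough UMIs (median −0.16): C4b was lower at 241 and 762 CPM (−1.66), as was Cfb, a factor of the alternative pathway, at 384 and 781 CPM (−1.02). C4b UMIs of the remaining members numbered 5 and 3, and Cfb was above 0 there (0.59). Cholesterol synthesis and fatty acid oxidation lists had 0 genes with 100 UMIs, and proliferation genes had 1, Tubb5 (0.15).

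Some of the extreme ratios belonged to 1 cell. Cfd, adipsin, had 346 UMIs, all of them in 1 LPS member. The acute phase gene Saa1 had 3 UMIs in LPS + MCZ members and 253 in LPS members, 77.1% of them in 1 cell (log2 ratio −5.90, −8.40 to −4.55). Ngp, a neutrophil granule gene, had 39 and 492 UMIs, and 1 LPS cell held 94.3% of the 492. Cd209f, a lectin, had 168 UMIs in LPS + MCZ members, 99.4% of them in 1 cell, and 3 in LPS members (5.84, 4.52 to 8.39). Spread over more cells were Rgs1, a regulator of G protein signalling (29.6 and 203 CPM, −2.74; 5 and 8 cells), and Lpl, lipoprotein lipase (21.1 and 171 CPM, −2.96; 8 and 14 cells), which was at −0.38 in the remaining members. Serpinb2 stood at 150 and 969 CPM (−2.68) and had 0 UMIs in the remaining members of both libraries.

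Among higher genes, Retnla had 101 UMIs in 5 LPS + MCZ members and 4 UMIs in 1 LPS member (4.76, 3.54 to 6.85). Of the 101 UMIs, 58 were in 3 cells of the Prg4 range and 43 in 2 remaining members. Lmna, lamin A, stood at 213 CPM in LPS + MCZ members and 45.0 CPM in LPS members (2.22), Lyz1, a lysozyme, at 205 and 51.9 CPM, Dok2 at 173 and 50.2 CPM (1.77), Lgals1, galectin 1, at 725 and 246 CPM (1.56), Rbpj, the Notch pathway factor, at 644 and 230 CPM (1.48) and Cacna1d at 682 and 248 CPM (1.46). Scgb1a1, a secretory protein of club cells and not of macrophages, stood at 194 and 50.2 CPM (1.93) and was open to free RNA, which means that the lowest mean UMIs per cell among T, B and erythroid cells reached at least 20% of its mean in the members. Cmss1 (1586 and 509 CPM, 1.64) was likewise open to free RNA. Gm42418, which overlaps ribosomal RNA, took 1.55% of UMIs in LPS + MCZ members and 0.616% in LPS members, and 1.12% and 0.493% over all filtered cells. Of the genes at least 2-fold changed, 13 of 60 higher and 5 of 97 lower ones were open to free RNA.

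The lower interferon genes were also seen outside the members. Over the same 29 genes, the median log2 ratio was −0.91 in the alveolar macrophage range, −0.52 in the classical monocyte range and −0.31 in the nonclassical monocyte range, with 28, 27 and 24 genes below 0. Of the 1767 genes, 54.8%, 53.4% and 59.1% were below 0 in these ranges. The difference between the members and these ranges was not tested. For the 17 chemokines the medians were −0.59, −0.42 and −0.34 in the 3 ranges. In the members the median was −0.33 over all of them and −0.82 in the remaining members.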

How the data were processed

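Lungs were digested with collagenases, Dispase and trypsin, and libraries were made with the 10x 3' V3 kit, per the labels' protocols. The authors deposited UMI counts per gene and cell barcode from Cell Ranger 7.0.0, per the file headers, and the mm10 build is given in the submitters' processing notes. The libraries hold 8500 (LPS + MCZ) and 12577 (LPS) barcodes, 68467793 and 90597705 UMIs.

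From these counts, member UMIs were summed per library and expressed as CPM. Intervals are exact 95% Poisson, Clopper-Pearson or conditional binomial intervals, and they cover counting error only. Genes needed 100 UMIs over both libraries. Doublets were not called. The members, gene lists and comparison ranges were chosen with earlier results of these data known, and the Prg4 and Ly6c2 and Vcan ranges after their values had been seen.

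The text names the 15 highest and 15 lowest ratios, the leading genes of each list, the 15 genes highest against the comparison ranges, and the 10 most like C1q in pattern. Some genes that this rule names are not reported here. Mx1, Mx2 and Cxcl11 were not analysed here. Sequences are RefSeq windows. Python 3.11.15, numpy 2.4.6, scipy 1.17.1 and pandas 2.3.3 were used.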

Additional observations from a re-analysis of the deposited data

Results flagged for a closer look

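Pooled MHC class II genes had a median above 0 over all members and medians below 0 in like cells of the same libraries. No direction is given for the members. Over the 4 genes measured, the median log2 ratio (LPS + MCZ over LPS) was 0.67 in the members and −1.48 in the alveolar macrophage range. It was −0.20 in the classical and −0.60 in the nonclassical monocyte range. Levels in the alveolar range were low, with H2-Aa at 6.03 CPM in LPS + MCZ and 22.9 CPM in LPS cells. With 1 library per group the difference between the ranges was not tested, and the value in the members turned to −0.03 with each cell weighted equally.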

How the results depend on the processing

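Values are log2 ratios, LPS + MCZ over LPS, unless they are counts or shares. The interferon response median was below 0 in all 22 alternatives (−1.49 to −0.42), and the share of members among filtered cells was within its interval in each of the 7 alternatives run for it. MHC class II has no stable direction, and the chemokine median moved in 11 of 22 alternatives. The cause of these shifts was not tested. No paired analysis was possible because each group has 1 library.

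With at least 10 C1q UMIs and 0.1% of UMIs, the interferon response, chemokine and MHC class II medians were −1.20, −0.41 and 0.54. With 0 UMIs of Plet1, Krt79 and Ear2 the chemokine and MHC class II medians were −0.65 and −0.030, and without the 10% of members with the most UMIs the chemokine median was −0.68. Scaling by the median of ratios gave −1.18 for interferon response, −0.44 for chemokines and 0.56 for MHC class II, and equal weights for cells gave −0.77, −0.76 and −0.030 for the same lists. A minimum of 50 UMIs gave 183 genes higher and 154 lower (chemokines −0.16), and one of 200 UMIs gave 20 and 57 (efferocytosis −0.50). Subtracting free RNA gave an interferon median of −1.31.

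Thinning to 1000 UMIs gave 272 genes higher and 265 lower, an MHC class II list median of −0.062, medians of −0.85 for chemokines, 0.078 for NF-kB targets, 0.22 for complement and −0.24 for M2 markers, ratios of 0.26 for Cfb and −0.24 for Il4ra, and resident gene shares of 41.9% and 31.4%.

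Within the resident gene range the interferon, chemokine and MHC class II medians were −1.49, −0.25 and 2.45. Outside it 21 genes were higher and 33 lower, with medians of −0.42 for interferon response, −0.052 for MHC class II, 0.43 for GTPases, 0.39 for complement, 0.11 for MHC class I and 0.077 for growth factors, and ratios of 0.84 for Ngp and 1.62 for Cxcl13.

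The following were added after seeing the data, with the gene minimum for counts applied within each range. In the Prg4 range 28 genes were higher, interferon response was at −1.46, chemokines at 0, MHC class II at −2.98 (H2-Ab1 had 0 UMIs in the 4 LPS + MCZ cells, so this is no bound), Ccl6 at −0.43 and Hspa1a at 0.033. In the Ly6c2 and Vcan range 10 genes were higher and 27 lower, with medians of −0.45 for interferon response, −0.070 for MHC class II, 0.58 for GTPases, 0.38 for complement, 0.12 for MHC class I, −0.20 for lysosome, −0.51 for lipid uptake, −0.34 for M2 markers, −0.024 for glycolysis and −0.18 for iron and heme, and ratios of −0.22 for Mrc1, −0.16 for Rbpj and 1.12 for Fn1. In the remaining members 59 genes were lower, with −0.94 for interferon response, −0.82 for chemokines, 0.27 for MHC class II, 0.50 for complement, 0.87 for growth factors and 0.59 for Cfb. Without the Prg4 range 29 genes were higher, with −1.07 for chemokines, 0.16 for MHC class II and 0.17 for complement.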
